A study of Mus musculus with 6 samples.

Results

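The GIMAP genes, for GTPases of immunity-associated proteins, were taken as the 8 members Gimap1, Gimap3, Gimap4, Gimap5, Gimap6, Gimap7, Gimap8 and Gimap9, chosen by symbol and matched to the Ensembl identifiers of the count table. All 8 were found among its 26128 genes, and all 8 were among the 14671 genes with enough counts to be tested. The libraries came from double negative T (DNT) cells, T cells that carry CD3 and lack CD4 and CD8. The cells had been made in culture from CD4+CD25- T cells of adult C57BL/6 mice, for which the labels name the spleen and the methods add lymph nodes, with mature dendritic cells of DBA/2 mice and IL-2, and were sorted as CD3+NK1.1-CD4-CD8-. Both groups were then kept for 48 h with beads that carry antibodies to CD3 and CD28. The control group of 3 libraries had no further addition, and the IL-33 group of 3 libraries received this cytokine of the IL-1 family at 50 ng/ml. These are cells converted and restimulated in vitro, all of 1 strain, and since no source states that replicates were separate mice, conversions or wells, p-values measure only the spread between these libraries.

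GIMAP proteins are GTP-binding proteins of lymphocytes whose fold is related to that of septins and dynamins. Their genes lie side by side in vertebrate genomes, and several of them are needed for the survival of peripheral T cells. Most members carry 1 GTPase domain, some are anchored to membranes such as those of lysosomes or the endoplasmic reticulum, and loss of Gimap5 leaves rats and mice short of T cells.

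The 6 libraries held 20256342 to 22336050 counts. The 6 T cell marker genes examined together gave 1893 to 2034 counts per 1000000 counts (CPM) without IL-33 and 2007 to 2070 CPM with it. Of the 6, 1 was higher (Cd3g) and 1 lower (Lck) at an adjusted p under 0.05 (edgeR), beside 13.6% and 13.9% of all genes. Their log2 fold changes were 0.13 and -0.17, and the other 4 genes did not pass. Of the genes that the sort should leave out, Cd4 was at 0.934 ± 0.183 and 0.373 ± 0.143 CPM (SD, n = 3 each), but Cd8a was at 545 ± 13.6 and 400.2 ± 9.15 CPM. Cd8b1 was at 9.68 ± 1.65 and 16.3 ± 2.07 CPM (SD, n = 3 each). Of these 4 genes Cd8b1 was higher with IL-33 and the other 3 were lower at an adjusted p under 0.05 (edgeR). Over all genes tested 13.6% were higher and 13.9% lower. Klrb1c, the gene of NK1.1, was at 33.5 ± 2.57 and 25.6 ± 1.15 CPM (SD, n = 3 each). The other NK cell markers were Ncr1, with a mean of at most 0.106 CPM in either group, and Eomes, which T cells can express as well, at 373 ± 1.45 and 358 ± 9.25 CPM (SD, n = 3 each). Of the endothelial markers Cdh5, Kdr and Tek had means of at most 0.916 CPM in either group, while Pecam1, which T cells can also express, was at 155 ± 8.20 and 169 ± 8.52 CPM (SD, n = 3 each) and was higher with IL-33 (adjusted p = 0.00804, edgeR). B cell markers summed to at most 6.35 CPM. Of 8 dendritic and myeloid cell markers 7 were listed, and their sum was 67.4 to 71.3 CPM without IL-33 and 41.8 to 47.3 CPM with it. Most of that sum was Itgax, an integrin gene that T cells can also express (54.6 ± 2.07 and 26.0 ± 1.59 CPM, SD, n = 3 each), while Flt3, Csf1r, Lyz2 and Adgre1 each had a mean of at most 0.305 CPM in either group. Itgam was higher with IL-33 at 4.83 ± 0.844 CPM, from 2.61 ± 0.0742 CPM, and Xcr1 was at 11.5 ± 1.02 and 12.4 ± 0.969 CPM (SD, n = 3 each). Whether cells with mRNA of these markers had a part in the GIMAP values was not tested.

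The 8 genes spanned 124 kb of mouse chromosome 6 (48647234 to 48770851, GENCODE M21 on GRCm38). They lay in the order Gimap8, Gimap9, Gimap4, Gimap6, Gimap7, Gimap1, Gimap5 and Gimap3, with 2.40 kb between Gimap1 and Gimap5 as the narrowest gap and 15.3 kb between Gimap8 and Gimap9 as the widest. Gimap6 and Gimap3 were on the minus strand and the other 6 on the plus strand. All are annotated as protein coding. Gimap8 has the longest coding sequence, with 2064 bases against 873 to 984 bases in the other 7, and encodes a protein with several GTPase domains. Gimap3 and Gimap5 were the most alike in coding sequence, with the same base at 86.5% of positions of the longer of the pair, and Gimap7 and Gimap9 came next at 64.5%. Every other pair was at 57% or less. This measure is low for pairs with Gimap8 because of its length. Gimap7 and Gimap8 were at 30.6% by it, but shared 73.3% of aligned bases, beside 64.9% for Gimap7 and Gimap9.

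This likeness bears on how reads could be assigned. Of all stretches of 50 bases in the transcripts of Gimap3, 7.52% also occurred in transcripts of Gimap5, and 4.53% of those of Gimap5 occurred in Gimap3. The transcripts of Gimap4, Gimap8 and Gimap9 shared no such stretch with any other annotated gene, and for Gimap6 the share was 0.17%. Gimap1 overlaps Gimap1os, an antisense gene, over 1107 of its 3073 exon bases. The gene model Gm28053 runs from Gimap7 to Gimap5 on the same strand and shares 81 exon bases with Gimap7, 198 with Gimap1 and 153 with Gimap5. Whether the counting used the strand, and how it treated reads that fit several genes, is not given in the sources used here, so the counts of Gimap1, and to a lesser degree those of Gimap3, Gimap5 and Gimap7, could hold reads of these partners.

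The GIMAP genes were abundantly expressed in DNT cells. Together they took 0.293 to 0.305% of all counts in each of the 6 libraries, and single members had between 1706 and 16618 counts in a library. Per length, as CPM per kb of merged exons, the highest level was that of Gimap4, with a mean of 398 ± 8.86 in the controls and 398 ± 5.64 in the IL-33 group (SD, n = 3 each). Gimap4 is known to affect the pace of T cell death and not to be needed for T cell development. Gimap3 followed at 289 ± 7.34 and 285 ± 4.64, then Gimap6 at 188 ± 3.61 and 200.1 ± 3.32, and Gimap8 at 109.8 ± 1.21 and 105 ± 1.52 CPM per kb (SD, n = 3 each). Over the 6 libraries the ranges of these 4 genes did not touch each other or those of the members below them.

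Lower levels per length were those of Gimap7, at 57.1 ± 1.01 and 65.9 ± 2.44, Gimap9, at 55.2 ± 1.85 and 50.0 ± 0.861, and Gimap1, at 40.2 ± 0.982 and 39.6 ± 1.34 CPM per kb (SD, n = 3 each). Gimap5 was lowest, at 21.4, 24.1 and 24.6 CPM per kb in the controls and 21.3, 21.2 and 20.5 CPM per kb with IL-33. Among neighbours in the order of all 8, Gimap7 and Gimap9 were the pair whose ranges over the 6 libraries overlapped. Gimap5, the member best known for its part in T cell survival, was thus at the lowest level of the cluster, and its close relative Gimap3 near the top. Of the 14658 tested genes with a known length, 99.4% had a lower level per kb than Gimap4 and 83.8% a lower level than Gimap5. With the length of the longest isoform in place of merged exons, Gimap1 stood above Gimap9 (76.6 ± 1.87 against 65.5 ± 2.19 CPM per kb without IL-33, SD, n = 3 each). Gimap7 and Gimap8 then overlapped in their ranges over the 6 libraries.

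**Figure D1:**
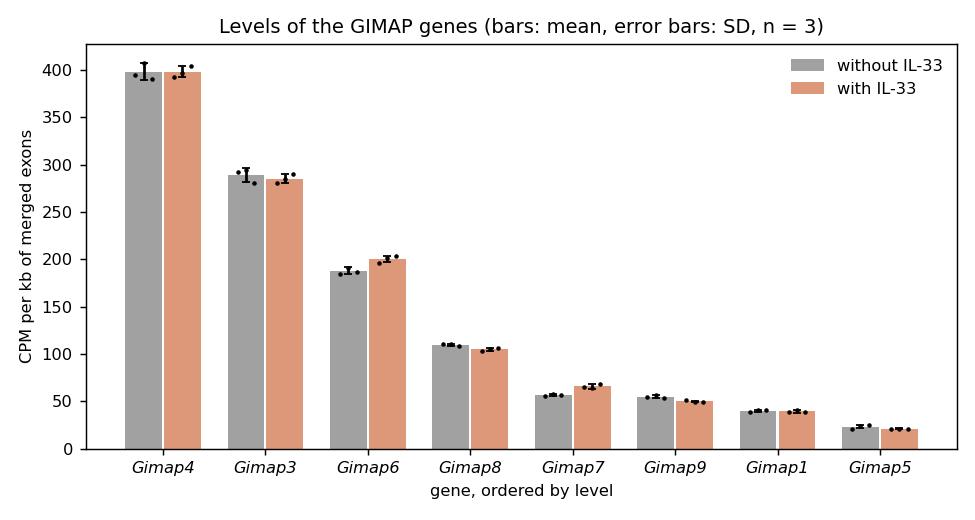
Levels of the 8 GIMAP genes in CPM per kb of merged exons, ordered from highest to lowest. Bars are means of 3 libraries, error bars are SD and points are single libraries, in grey without IL-33 and in orange with it. Gimap4 stood at 398 in both groups and Gimap5 between 20.5 and 24.6.

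The question of the comparison was what IL-33 changes in stimulated DNT cells. For the cluster as a whole the answer was small shifts in opposite directions. By the quasi-likelihood test of edgeR, with p-values adjusted by the Benjamini-Hochberg method across every tested gene, 2 of 8 members were higher with IL-33 at an adjusted p under 0.05 (Gimap6 and Gimap7), beside 13.6% of all genes tested, and 2 of 8 were lower (Gimap5 and Gimap9), beside 13.9% of all genes. The other 4 members did not pass. With the further requirement of a fold of at least 1.5 in either direction, the count was 0 of 8 in both directions, beside 2.47% of all genes higher and 2.39% lower. The 95% interval of every member stayed within 0.28 of 0 on the log2 scale, well inside that fold. The median log2 fold change of the 8 members was -0.018, beside -0.001 over all genes tested, and the median size of the fold change without regard to sign was 0.082, beside 0.152. In 5 of 8 members the CPM of the groups did not overlap, beside 38.9% of all genes tested. These shares and medians over all genes are not matched for level. They include genes of low counts, whose fold changes are less precise, while each member stood above at least 83.8% of genes per kb. In bulk RNA, fewer cells that express a gene and less RNA per cell cannot be told apart, and this holds for every difference given here.

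Gimap7 had the largest change. It encodes a GTPase that is switched on when 2 molecules pair, and it can act on other GIMAP proteins in the same way. Its level was 130.4, 135 and 133 CPM in the control libraries and 151, 149 and 159.7 CPM in the IL-33 libraries. All 3 IL-33 libraries were above all 3 controls, by more than the spread within either group. The mean rose from 133 ± 2.36 to 153 ± 5.68 CPM (SD, n = 3 each), a log2 fold change of 0.21 (SE 0.038, 95% interval 0.13 to 0.28, adjusted p = 4.4e-06, edgeR quasi-likelihood test, Benjamini-Hochberg adjustment), or 15.5% more. The call held in all 13 alternative analyses, with log2 fold changes of 0.18 to 0.23 when single libraries were left out. Gm28053, which shares the first 81 bases of Gimap7, was at 8.39, 9.99 and 10.1 CPM in the controls and 11.9, 11.9 and 11.2 CPM with IL-33, a log2 fold change of 0.30 with an adjusted p of 0.0544 by the same test.

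Gimap6, whose protein binds the autophagy protein GABARAPL2, was the other member to rise. The controls had 644, 669 and 655 CPM and the IL-33 libraries 687, 702 and 709.9 CPM. The groups did not overlap, although the highest control and the lowest IL-33 library lay close together. The mean was 656 ± 12.6 CPM without and 699 ± 11.6 CPM with IL-33 (SD, n = 3 each), a log2 fold change of 0.09 (SE 0.026, 95% interval 0.04 to 0.14, adjusted p = 0.00322, edgeR quasi-likelihood test, Benjamini-Hochberg adjustment), or 6.66% more. This call also held in all 13 alternative analyses.

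Gimap5, a GTPase of lysosomal membranes, was lower with IL-33. Its levels were 88.8, 99.9 and 102 CPM in the controls and 88.3, 88.0 and 85.1 CPM with IL-33. The groups were separated by a narrow margin, since control 1 lay just above the IL-33 libraries and controls 2 and 3 well above them. The mean fell from 96.9 ± 7.08 to 87.1 ± 1.76 CPM (SD, n = 3 each), a log2 fold change of -0.15 (SE 0.043, 95% interval -0.24 to -0.07, adjusted p = 0.0039, edgeR quasi-likelihood test, Benjamini-Hochberg adjustment). Without control 3 the log2 fold change was -0.11 with an adjusted p of 0.0819, so the call rested on that library. Whether reads of Gimap3, which shares stretches with Gimap5 and was at a higher level, had a part in these counts was not tested.

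Gimap9 was also lower with IL-33. The controls had 90.4, 93.9 and 87.8 CPM and the IL-33 libraries 83.7, 81.4 and 81.2 CPM. All IL-33 libraries were below all controls. The mean fell from 90.7 ± 3.04 to 82.1 ± 1.41 CPM (SD, n = 3 each), a log2 fold change of -0.14 (SE 0.042, 95% interval -0.23 to -0.06, adjusted p = 0.00584, edgeR quasi-likelihood test, Benjamini-Hochberg adjustment). Without control 2 the log2 fold change was -0.12 with an adjusted p of 0.0601.

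Gimap8, at the left end of the cluster, had 407, 410.0 and 401 CPM in the controls and 381, 387 and 392 CPM with IL-33. The groups did not overlap, but the difference was small. The log2 fold change was -0.07 (SE 0.029, 95% interval -0.13 to -0.01) and missed the threshold, with an adjusted p of 0.0543 by the edgeR quasi-likelihood test, Benjamini-Hochberg adjustment. It passed with DESeq2 (adjusted p = 0.0412), with limma-voom (adjusted p = 0.0431) and in edgeR without TMM factors (adjusted p = 0.0132).

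The remaining members, Gimap4, Gimap3 and Gimap1, overlapped between the groups. Gimap4 had 726, 749 and 717 CPM without IL-33 and 721, 729 and 742 CPM with it, and its interval of the log2 fold change ran from -0.05 to 0.05. Gimap3, whose protein sits in the endoplasmic reticulum, had 752, 757 and 722 CPM without and 724, 735 and 748 CPM with IL-33, with an interval from -0.07 to 0.04. Gimap1, which mature T and B cells need to persist, had 120.2, 124 and 126 CPM without and 119, 127 and 119.7 CPM with IL-33, with an interval from -0.10 to 0.06. The adjusted p of these genes was 0.999, 0.707 and 0.747 in that order, by the edgeR quasi-likelihood test, Benjamini-Hochberg adjustment. Gimap1os, the antisense partner of Gimap1, had 173, 207 and 256 counts in the controls and 163, 198 and 200 counts with IL-33, and did not pass either (adjusted p = 0.245, same test). Counting error alone was 0.796 to 2.33% of the count of a member in 1 library. As folds with against without IL-33, the 95% intervals were 0.97 to 1.04 for Gimap4, 0.96 to 1.02 for Gimap3 and 0.93 to 1.04 for Gimap1.

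**Figure D2:**
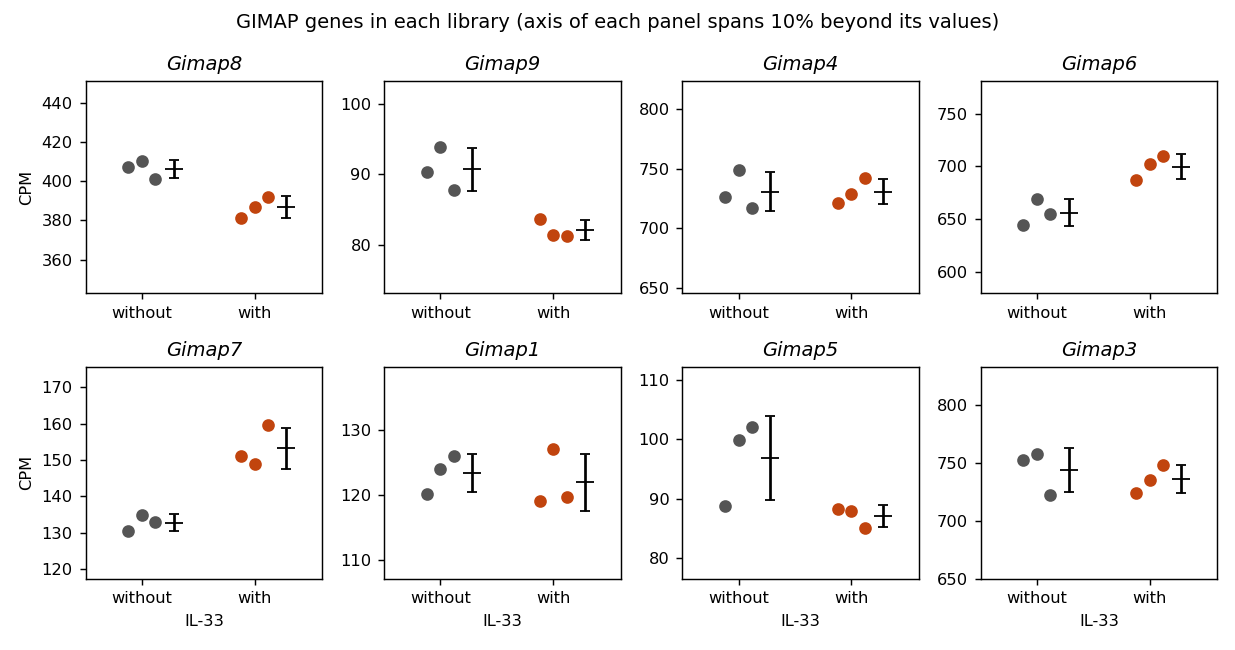
CPM of the 8 GIMAP genes in each library, in the order of the genes on the chromosome, without IL-33 in grey and with IL-33 in orange. Points are libraries, and the line and error bar beside them are mean and SD of 3 libraries. Each vertical axis covers only the range around its gene and does not start at 0. The IL-33 libraries lie above the controls for Gimap6 and Gimap7, below them for Gimap8, Gimap9 and Gimap5, and among them for Gimap4, Gimap1 and Gimap3.

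The sum of the cluster stayed level while its make-up shifted slightly. The 8 members summed to 2980 ± 50.2 CPM in the controls and 2997 ± 40.8 CPM with IL-33 (SD, n = 3 each), a ratio of 1.01. Gimap7 made up 4.41 to 4.51% of the GIMAP counts in the controls and 4.97 to 5.26% in the IL-33 libraries, and Gimap8 went from 13.5 to 13.8% to 12.9% in each IL-33 library. Gimap4 held 24.3 to 24.6% throughout.

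Ratios of counts within a library do not depend on the scaling between libraries. They are given for a few pairs chosen after their values were seen, as a description with no test. Over the longer coding sequence of a pair, Gimap9 was the gene most like Gimap7. For each count of Gimap9 there were 1.44, 1.44 and 1.51 counts of Gimap7 in the controls and 1.81, 1.83 and 1.97 with IL-33. Gimap5 had 0.681, 0.740 and 0.768 counts for each count of Gimap7 in the controls and 0.583, 0.591 and 0.533 with IL-33. Both ratios separated the groups, as they had to, since Gimap7 lay above all controls with IL-33 and Gimap5 and Gimap9 below them. Of all 28 pairs of members, 17 had ratios that did not overlap between the groups. The closest pair of the family, Gimap3 and Gimap5, had a ratio of 8.47, 7.58 and 7.08 in the controls and 8.20, 8.35 and 8.79 with IL-33, and here the groups overlapped.

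Sequences before the start of 3 members are given for comparison, namely the member with the largest rise, the one with the largest fall and the one with the highest level and no difference. Each is the stretch of 250 bases before the RefSeq start of the gene on GRCm38.p6, read 5′ to 3′ on the plus strand. Capitals mark matches on either strand to 7 short motifs, of which RUNX (TGTGGT, or ACCACA on the other strand) and KLF (CACCC, or GGGTG) occurred in these 3.
Gimap7, chr6:48718371-48718620: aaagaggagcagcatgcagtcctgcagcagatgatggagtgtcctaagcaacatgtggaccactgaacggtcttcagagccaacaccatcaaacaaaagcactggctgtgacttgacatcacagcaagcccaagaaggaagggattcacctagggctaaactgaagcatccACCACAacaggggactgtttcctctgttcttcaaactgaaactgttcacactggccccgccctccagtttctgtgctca
Gimap5, chr6:48745947-48746196: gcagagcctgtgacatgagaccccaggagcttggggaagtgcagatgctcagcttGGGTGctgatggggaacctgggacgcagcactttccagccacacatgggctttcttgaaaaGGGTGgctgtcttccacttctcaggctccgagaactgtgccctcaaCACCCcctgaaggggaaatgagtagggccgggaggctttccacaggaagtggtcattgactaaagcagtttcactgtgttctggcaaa
Gimap4, chr6:48684328-48684577: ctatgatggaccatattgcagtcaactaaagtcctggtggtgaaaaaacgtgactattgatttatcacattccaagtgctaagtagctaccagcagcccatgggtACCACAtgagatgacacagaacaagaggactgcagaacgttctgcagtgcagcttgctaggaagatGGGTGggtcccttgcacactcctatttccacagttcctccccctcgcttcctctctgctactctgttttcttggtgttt
The window of Gimap7 held 1 RUNX match, which began 79 bases before the start. That of Gimap5 held 3 KLF matches, at 195, 134 and 88 bases before the start, and that of Gimap4 held a RUNX match at 145 and a KLF match at 79 bases. None of the marked matches overlapped another. Among 32851 windows of the same length from all genes of the RefSeq table, 14% held a RUNX match and 52% a KLF match.

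All 8 members had such a window, and Gimap8 had 2, from separate starts. RUNX matches lay before Gimap1, Gimap4 and Gimap7. ETS matches (CGGAAG) lay before Gimap1, Gimap6 and 1 start of Gimap8, beside 13.6% of all windows, and STAT matches (TTCNNNGAA) before Gimap6 and the same start of Gimap8, beside 7.02%. The FOXO motif (GTAAACA) was matched before Gimap3, beside 3.17% of all windows. The letters of the NF-kappaB motif (GGGNNTTCC, found in 4.98% of all windows) and of the GATA motif (AGATAA, in 9.99%) did not occur in the 9 windows. Such matches are letters in a window and not measured binding.

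Among the transcription factors of lymphocytes examined beside the cluster, Runx1 and Runx3 moved in opposite directions. The list held 12 regulator genes, chosen with earlier results of these data known, and 3 were higher and 7 lower at an adjusted p under 0.05, beside 13.6% and 13.9% of all genes tested. Their median log2 fold change was -0.13, beside -0.001 over all genes. Runx3, which represses Cd4 and promotes cytotoxic T cells, rose from 229 ± 8.50 to 306 ± 6.55 CPM (SD, n = 3 each), a log2 fold change of 0.42 (adjusted p = 9.7e-21, edgeR quasi-likelihood test, Benjamini-Hochberg adjustment). Runx1 fell from 96.7 ± 2.75 to 72.5 ± 3.03 CPM (SD, n = 3 each), a log2 fold change of -0.42 (adjusted p = 2.8e-14, same edgeR test). The other differences were smaller, among them Tbx21 at -0.26, Elf1 at 0.19, Cbfb, the shared partner of RUNX proteins, at -0.17, Gata3 at -0.16, Ets1 at -0.15 and Notch2 at -0.14 on the log2 scale. None of the 12 reached a fold of 1.5.

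Of 14 partner genes, which encode BCL2 family proteins, autophagy proteins of the ATG8 family and kinases that GIMAP proteins have been reported to bind or act with, 1 rose and 1 fell, beside 13.6% and 13.9% of all genes tested. Bcl2l1, which encodes the survival protein BCL-XL, rose from 82.6 ± 1.05 to 101 ± 2.69 CPM (SD, n = 3 each), a log2 fold change of 0.28 (adjusted p = 1.6e-08, edgeR quasi-likelihood test, Benjamini-Hochberg adjustment). Bcl2l11, which encodes the death protein BIM, fell from 488 ± 16.8 to 399 ± 10.3 CPM (SD, n = 3 each), a log2 fold change of -0.29 (adjusted p = 3.8e-15, same edgeR test). The other 12 did not pass the test, among them Gabarapl2, the partner of Gimap6, at 63.7 ± 2.36 and 62.9 ± 1.26 CPM (SD, n = 3 each). The median of the list was 0.05 on the log2 scale.

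GIMAP genes are known as genes of resting lymphocytes, so 18 genes of T cell quiescence were set beside them. Of these, 7 were higher and 7 lower with IL-33, beside 13.6% and 13.9% of all genes tested, and their median log2 fold change was -0.06. Past the fold of 1.5 as well were Ccr7, a homing receptor of lymph nodes, at 1.14, Klf2 at 0.72 and Tsc22d3, a glucocorticoid-induced gene, at 0.66 among the rises, and Klf3 at -0.67 and Il7r, the IL-7 receptor, at -0.66 among the falls. In the edgeR quasi-likelihood test with adjustment by Benjamini-Hochberg, their adjusted p ranged from 0.00476 for Klf2 to 1.1e-24 for Il7r. That each of these 5 genes had a larger fold change, in either direction, than any GIMAP gene follows from their choice by the fold of 1.5, which no GIMAP gene reached.

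Other GTPase families were compared by counts and medians. Of 13 septin genes, the relatives in fold, 12 were listed and 10 tested. Of these, 1 was higher (Sept2, 0.10), beside 13.6% of all genes. Lower were 3 (Sept8, -0.34, Sept1, -0.22, and Sept7, -0.11, all log2 fold changes), beside 13.9% of all genes. The other 6 did not pass, and the median was 0.02. Of 18 GBP and IRG genes, the interferon-inducible GTPases that act on the vacuoles of intracellular pathogens, 17 were tested, 14 were lower with IL-33 and 0 higher, beside 13.9% lower and 13.6% higher over all genes, and the median was -0.30. Their sum went from 2529 to 2597 CPM in the controls to 2037 to 2119 CPM with IL-33, while the GIMAP sum stayed at 2944 to 3037 CPM in the 6 libraries. Irgm2 fell from 92.2 ± 2.20 to 57.3 ± 2.13 CPM (SD, n = 3 each), a log2 fold change of -0.69 (adjusted p = 2.8e-25, edgeR quasi-likelihood test, Benjamini-Hochberg adjustment), and Iigp1 and Gbp10 also fell by 0.69 on the log2 scale. Gbp3, Gbp5 and Gbp7 did not pass the test. Some genes of this list overlap in position on the same strand, namely Gbp4, Gbp8 and Gbp9, and also Igtp and Irgm2. Whether they share reads was not tested, so the 14 may not be separate differences.

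**Figure D3:**
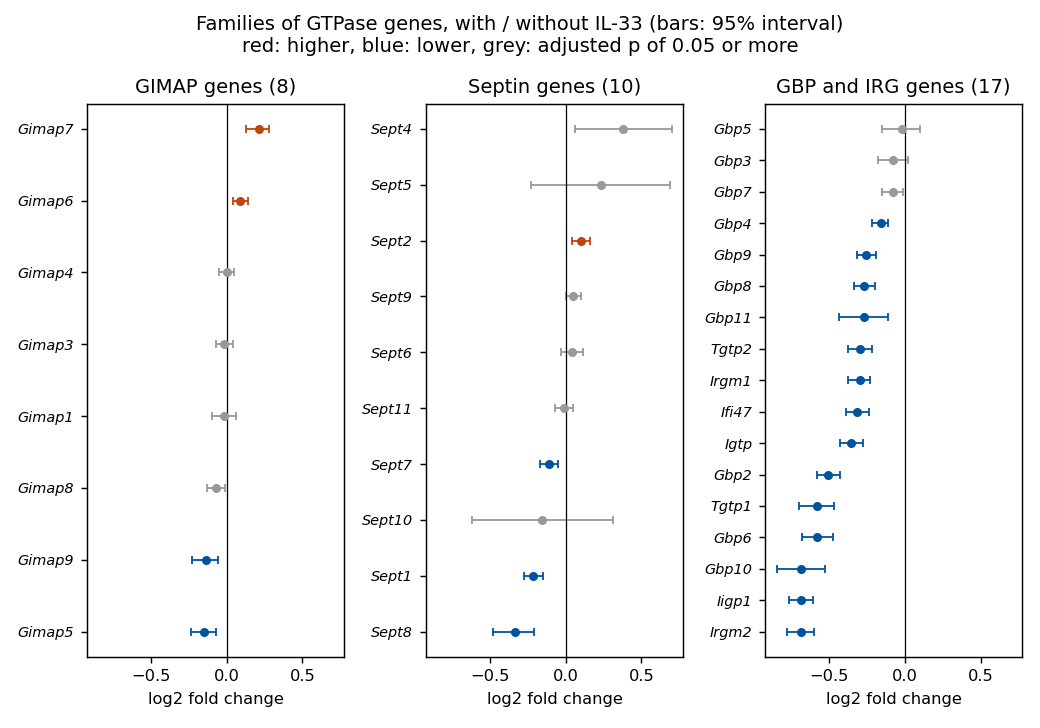
Log2 fold changes with 95% intervals, with against without IL-33, for 8 GIMAP genes, 10 septin genes and 17 GBP and IRG genes. Red marks genes that were higher and blue genes that were lower at an adjusted p under 0.05 (edgeR), and grey the rest. The GIMAP genes lie between -0.15 and 0.21, while GBP and IRG genes reach -0.69.

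Larger differences were measured close to the cluster on the chromosome. Within 500 kb of its ends 22 genes other than GIMAP members were tested, of which 2 were higher, 6 lower and 14 did not pass, beside 13.6% higher and 13.9% lower of all genes tested. Tmem176a and Tmem176b, membrane protein genes that overlap at their ends on opposite strands 70.1 and 63.0 kb beyond Gimap3, were both lower. Tmem176a had 22.1, 21.1 and 19.7 CPM in the controls and 12.6, 9.73 and 11.6 CPM with IL-33, a log2 fold change of -0.89 (95% interval -1.09 to -0.69, adjusted p = 1.2e-12, edgeR quasi-likelihood test, Benjamini-Hochberg adjustment). Tmem176b had 20.1, 17.2 and 18.3 CPM in the controls and 11.3, 11.6 and 12.9 CPM with IL-33, a log2 fold change of -0.64 (95% interval -0.84 to -0.44, adjusted p = 1.6e-07, same edgeR test). For both genes the groups were far apart, and without use of the strand, reads from the stretch where the pair overlaps cannot be told apart. Gpnmb, 266 kb from the cluster, went from 5.14 ± 0.370 to 2.63 ± 0.248 CPM (SD, n = 3 each), a log2 fold change of -0.96 (adjusted p = 1.7e-05, same edgeR test).

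These 3 genes and Tra2a (-0.15) kept their calls in all 13 alternative analyses. The calls of Zfp467 (-0.86), Lrrc61 (0.34) and Gm43980 (-0.33) were lost without control 1 and under at least 1 further setting, and that of Gm7890 (0.70) was kept in 4 of the 13. Without control 1 the number of neighbours called was 5 in place of 8, and these 5 included a gene not called in the main test. Of the 4 tested genes that lie inside the cluster, Gm28053, Gimap1os, Gm44226 and 4833403J16Rik, none passed in the main test, with adjusted p from 0.0544 to 0.539 (edgeR). At an unadjusted p under 0.05 this count was 2 of 4, Gm28053 and Gm44226, beside 37.2% of all genes tested.

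**Figure D4:**
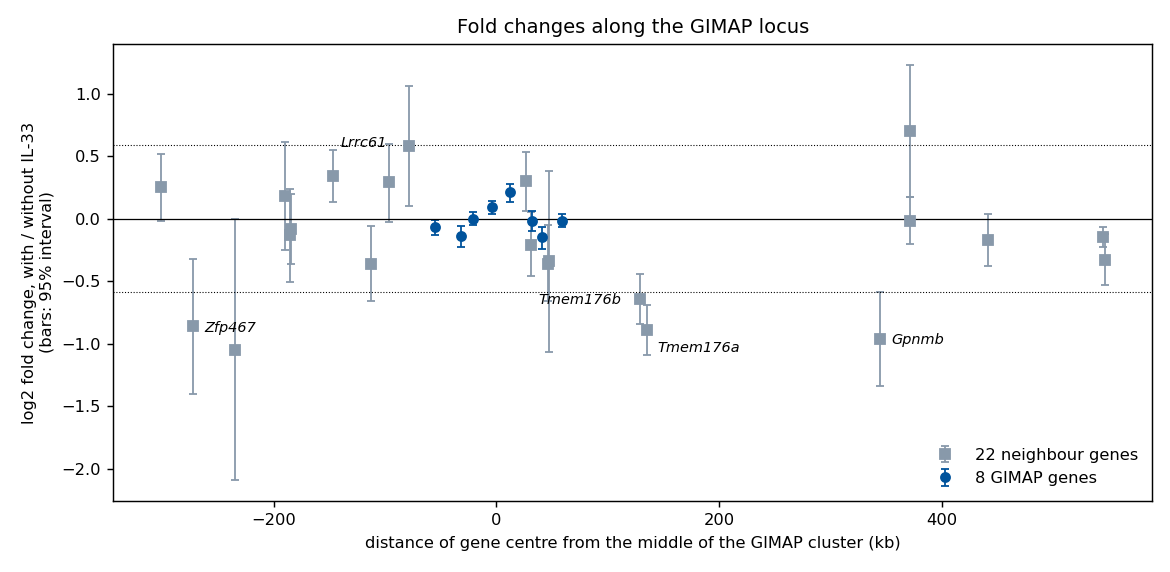
Log2 fold changes with 95% intervals of the 8 GIMAP genes (blue circles) and of 22 tested neighbours (grey squares), plotted by the distance of the gene's centre from the middle of the cluster in kb. The dotted lines mark a fold of 1.5 in either direction. The GIMAP genes lie close to 0. Below the lower line lie Tmem176a, Tmem176b and Gpnmb on the right and Zfp467 and Sspo on the left. Of these, Sspo did not pass the test (adjusted p = 0.133, edgeR). Gm7890 lies above the upper line.

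The genes whose levels followed the mean GIMAP profile most closely were looked up among 8831 genes with a mean of at least 10 CPM. Over the 6 libraries the highest Pearson correlations were those of Zfp800 (r = 0.977), Dhx29 (0.976), Usf1 (0.975), Ubald1 (0.968) and 2310001H17Rik (0.960). Since the mean profile of the 8 members moved by only -0.019 to 0.036 on the log2 scale around its average, and the points share the scaling of their libraries, these values describe small variations between libraries. They are also the 5 highest of 8831 values, each from only 6 points. Values picked in this way cannot show that these genes follow the GIMAP genes. All 5 were above that threshold of 0.05 on the adjusted p in the edgeR test between the groups.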

How the data were processed

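RNA was sequenced from 6 libraries of DNT cells, 3 without and 3 with IL-33, grouped by their labels. Per gene and library, the authors deposited a raw read count, beside a column of mean signal that was not used here. The submitters' processing notes name Bowtie 0.12.2 and the build mm8. Which counting program and annotation they used, and whether strand was taken into account, is not given in the sources used here. Labels and methods differ on the library kit (Illumina TruSeq in the labels). Of 26128 Ensembl identifiers, 26086 matched GENCODE M21 (GRCm38), the source of all positions and lengths given here, while promoter sequences are from RefSeq (GRCm38.p6).

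Genes were filtered with filterByExpr (minimum count 10, minimum total count 15), which removed 0.11% of counts, scaled by TMM and tested between groups by the quasi-likelihood method of edgeR 4.0.16 in R 4.3.3 (robust, two-sided, no covariates) with Benjamini-Hochberg adjustment over 14671 genes. Calls used an adjusted p under 0.05 and, for the stricter count, the study's fold of 1.5. An exact permutation test of 3 against 3 libraries cannot give a p below 0.1 and was not used. DESeq2 1.42.0, limma-voom (limma 3.58.1), other scalings and filters, a replicate block and each library left out in turn served as alternatives. For the gene lists those other than DESeq2 were added after the data had been seen. The fit was tested on simulated data.

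All members were named, with called genes of the neighbourhood and of the lists (at most 8 of a list, by size of the fold change), genes overlapping a member on the other strand and the 5 genes closest to the mean member profile. Other genes given by value, among them markers, Gabarapl2, Gm28053 and genes that did not pass, fall outside that rule and were chosen after their values were seen. The members and lists were chosen with earlier results of these data known. Protein sequences were not used here.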

Additional observations from a re-analysis of the deposited data

How the results depend on the processing

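The number of GIMAP genes called at an adjusted p under 0.05 was 4 in the main test and 3 to 4 when single libraries were left out. It was 5, with Gimap8 added, under DESeq2, limma-voom and total counts without TMM, and 4 under the other alternatives. The number past both thresholds was 0 under every alternative, including a test against the fold of 1.5. Over all genes, leaving out single libraries gave 3366 to 3664 calls in place of 4036, and 621 to 719 past both thresholds in place of 714. The lowest counts were those of DESeq2, with 3031 calls and 501 past both thresholds. For the neighbours of the cluster the range was 5 to 8, with 5 without control replicate 1 in place of 8. There Zfp467, Lrrc61, Gm7890 and Gm43980 no longer passed, and a neighbour not among the 8 was called. The lists gave 2 to 3 partner, 12 to 14 quiescence, 7 to 10 regulator, 3 to 5 septin and 13 to 14 GBP and IRG genes called when single libraries were left out. The direction of no called member was reversed. The median of all genes moved by at most 0.02 on the log2 scale under any scaling.

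Deviations of same-numbered libraries from their group means had r = 0.012, 0.003 and 0.011. Such values cannot show whether the numbers pair the samples, since no source states what the replicates were. With the replicate number as a block 4 members, 3798 genes in all and 7 neighbours were called. At this depth and with 3 libraries in each group, differences of Gimap1, Gimap3 and Gimap4 within their intervals were not detectable, and the share of reads that near-identical or overlapping genes exchanged was not measured.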
